A study of Mus musculus with 9 samples.

Results

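The clustered histone genes of the mouse, which encode the linker histones (H1) and the core histones (H2A, H2B, H3 and H4), were examined in poly(A)-primed RNA-seq libraries of bone marrow endothelial cells (ECs). Members were the rows of the read count table whose gene name reads Hist, a digit, h and a digit, with names ending in -ps left out. This rule found 70 of 46078 genes, of which 6 belonged to H1, 20 to H2A, 19 to H2B, 12 to H3 and 13 to H4. One name, Hist2h2bb, stood on 2 rows.

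All 9 libraries came from sorted bone marrow cells of wild type B6 mice, and the labels name no treatment. The cells were CD45-Ter119-CD31+ and were separated by Sca-1 into a Sca-1+ fraction (4 libraries, numbered 7, 13, 15 and 19 by the last number of their labels) and a Sca-1- fraction (5 libraries, 8, 10, 14, 16 and 22). In the study, high Sca-1 marked arterial and arteriolar ECs and low Sca-1 marked sinusoidal ECs. The labels give neither age nor sex, and they do not say whether a library came from 1 mouse or from a pool, so that the p-values measure the spread between these libraries. Running numbers in the labels were 30016 to 30019 in Sca-1+ and 30108 to 30115 in Sca-1-. What they stand for is not stated, and anything tied to these separate series cannot be told apart from the fraction. Libraries held 21581653 to 25959818 counts.

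Histones package DNA, and most of their genes lie in clusters that are transcribed when DNA is replicated. The mRNAs of these replication-dependent genes normally end in a conserved stem-loop and not in a poly(A) tail; the stem-loop is bound by SLBP, and the U7 small nuclear RNA guides the cleavage just after it. Some of these genes also give longer, polyadenylated mRNAs, mainly in cells that have stopped dividing. A library primed on poly(A) therefore reads mainly the tailed forms, and how much of the stem-loop form of each gene was present was not measured here.

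The 16-base stem-loop was found in an annotated transcript (GENCODE M21, GRCm38) of 44 members, against 84 of 21951 protein-coding genes (0.38%). It occurred in 8 different sequences. The most frequent was shared by 24 members of the H1, H2A, H2B and H3 classes, and 7 of the H4 genes carried a second one. The stem-loops of leading members are shown because the levels are later set beside how far each annotated transcript runs past them; the stem-loop is in capitals and 5 bases stand on either side.
Hist1h1c: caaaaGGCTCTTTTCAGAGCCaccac
Hist3h2a: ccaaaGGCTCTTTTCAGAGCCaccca
Hist1h2ac: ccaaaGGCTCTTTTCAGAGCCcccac
Hist1h3d: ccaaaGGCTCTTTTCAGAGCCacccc
Hist1h3f: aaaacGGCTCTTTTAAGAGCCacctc
Hist1h4i: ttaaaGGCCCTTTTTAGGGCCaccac
Hist1h4h: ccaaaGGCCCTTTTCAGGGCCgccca
Hist1h4b: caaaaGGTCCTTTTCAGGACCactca
In Hist1h1c the stem-loop lay at chr13:23739512-23739527 on the plus strand, and in Hist1h4i at chr13:22040966-22040981 on the minus strand. Both genes, at chr13:23738808-23740367 and chr13:22040636-22041362, have a single exon. Of the 68 members present in this annotation, 62 had single-exon transcripts; 54 lay on chromosome 13, 11 on chromosome 3, 2 on chromosome 11 and 1 on chromosome 6.

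The fractions were first compared over lists of cell type markers. Summed endothelial markers were 14361 to 17796 CPM (counts scaled to a library of fixed size; the scaling is given with the histone sums) in the Sca-1+ libraries and 1446 to 4423 CPM in the Sca-1- libraries, and 13 of 15 were higher in Sca-1+. Summed megakaryocyte markers were 34.7 to 71.3 CPM in Sca-1+ and 22266 to 84241 CPM in Sca-1-, with 12 of 12 lower in Sca-1+. Erythroid markers summed to 106 to 232 against 640 to 2398 CPM (7 of 10 lower), leukocyte markers to 117 to 194 against 1601 to 3184 CPM (7 of 8 lower) and proliferation markers to 36.7 to 82.3 against 214 to 682 CPM (10 of 10 lower). None of these markers was at 0 in every Sca-1+ library. Of all genes in the test described below, 23.3% were higher and 21.4% lower in Sca-1+. Both fractions are labelled as endothelial, but endothelial markers were low and megakaryocyte markers high in Sca-1- when set beside Sca-1+. The part of these cells in the histone differences was not tested, and in such bulk samples fewer cells of a type and less RNA per cell cannot be told apart.

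Clustered histone mRNA was lower in the Sca-1+ fraction in every class. Over all 70 genes the summed level was 117, 111, 125 and 110 CPM in Sca-1+ libraries 7, 13, 15 and 19, a mean of 115.7 ± 6.9 CPM (SD, n = 4). In Sca-1- libraries 8, 10, 14, 16 and 22 it was 2414, 2428, 1278, 819 and 933 CPM, a mean of 1574 ± 791 CPM (SD, n = 5), 13.6-fold higher. Libraries 8 and 10 held the most and library 16 the least, and the lowest Sca-1- library still lay above the highest Sca-1+ library. CPM are counts over each 1000000 counts of the library total after scaling by the trimmed mean of M-values (TMM). As a share of all counts of a library, histone genes took 0.0123% to 0.0146% in Sca-1+ and 0.095% to 0.162% in Sca-1-.

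By class, the widest gap was in H1, the linker histones that sit where DNA enters the nucleosome. The summed H1 level was 29.7 ± 3.9 CPM (SD, n = 4) in Sca-1+ and 678 ± 364 CPM (SD, n = 5) in Sca-1-, 22.8-fold higher. For H2B the levels were 53.0 ± 3.12 and 646 ± 306 CPM, 12.2-fold. For H2A they were 18.8 ± 1.76 and 157 ± 104 CPM, 8.37-fold. H2A and H2B pair as a dimer, and both differed in the same direction. H4 summed to 11.3 ± 1.29 and 82.9 ± 39.5 CPM, 7.36-fold, and H3 to 2.85 ± 0.72 and 9.96 ± 3.19 CPM, 3.49-fold. In each class every Sca-1- library lay above every Sca-1+ library. No test was made of these sums, because the genes were chosen with earlier results known.

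**Figure D1:**
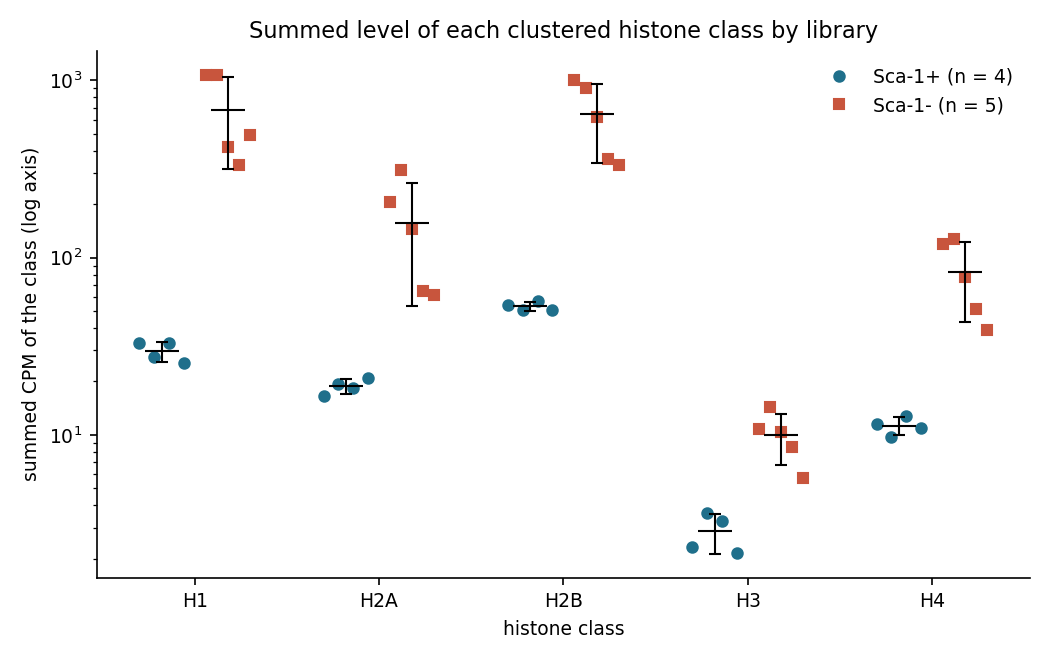
Summed CPM of each clustered histone class (log axis), 1 point per library, with the mean and SD as a black bar and whiskers. The Sca-1+ libraries form a tight group in each class, the Sca-1- libraries lie above them and spread widely, and the gap is widest in H1 (29.7 against 678 CPM) and narrowest in H3 (2.85 against 9.96 CPM).

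The make-up of the histone counts also differed between the fractions. H1 took 23.1% to 28.0% of the histone counts of a Sca-1+ library and 33.0% to 52.8% of those of a Sca-1- library. H3 took 1.98% to 3.28% against 0.448% to 1.04%, and H4 took 8.75% to 10.3% against 4.17% to 6.25%. H2A took 14.1% to 18.96% against 6.60% to 12.8%. These 4 shares did not overlap between the fractions, whereas the share of H2B, 45.7% to 46.0% against 35.8% to 48.8%, did. A few genes carried each class. Hist1h1c supplied 96.6% of all H1 counts, Hist1h2bc 93.5% of H2B, Hist3h2a 82.2% of H2A, Hist1h3d 40.9% of H3 and Hist1h4i 37.7% of H4. Together Hist1h1c, Hist1h2bc and Hist3h2a made up 73.6% to 78.1% of the histone counts in Sca-1+ and 83.1% to 91.5% in Sca-1-. Without these 3 genes the summed level was 24.3 to 32.9 CPM in Sca-1+ and 104 to 224 CPM in Sca-1-, so that the fractions were still apart.

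Gene by gene, 35 members passed the filter on low counts (filterByExpr of edgeR) and were tested with edgeR's quasi-likelihood test, with p-values adjusted by Benjamini-Hochberg across the whole set of 15937 genes (threshold 0.05). Of these, 25 were lower and 2 higher in Sca-1+, and 8 were not called. Over all tested genes, 21.4% were lower and 23.3% higher in Sca-1+. The filter itself bears on this count. Of the 35 tested members, 16 reached the filter's level of 0.415 CPM in at least 4 Sca-1- libraries but not in all 4 Sca-1+ libraries, so that they entered the test through the Sca-1- libraries. The 25 lower calls, the median and the class counts below were taken with these 16 included. For these 16 the filter favoured a lower call, so that the 25 of 35 was partly set by the filter. Only 18 members reached that level in all 4 Sca-1+ libraries, and calls were not counted for these alone. The median log2 fold change of the 35 was -3.07, with a range of -7.58 to 5.11, beside a median of 0.07 over all tested genes. By class, 4 of 5 tested H1 genes were lower, as were 5 of 6 H2A, 7 of 10 H2B, 2 of 5 H3 and 7 of 9 H4 genes.

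Counted over all 70 members, tested or not, the mean CPM was lower in Sca-1+ for 59, higher for 10 and without any count for 1, Hist2h3c1. Every Sca-1- library lay above every Sca-1+ library for 38 members, of which 23 were tested, and the opposite held for 2. Among all tested genes these shares were 18.8% and 24.8%, which stand beside the 23 and 2 tested members only. The other 35 members did not pass the filter. They held 0 to 120 counts over the 9 libraries, with a median of 30, and 0.821% of the histone counts in all. For 29 of them the mean was lower in Sca-1+ and for 5 it was higher, and every Sca-1- library lay above in 15. Shares over all genes that did not pass the filter were not computed, so that these counts have no share beside them. No count in any Sca-1+ library was found for 9 members, and 3 counts, the limit that a count of 0 allows, are 0.102 to 0.116 CPM there.

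**Figure D2:**
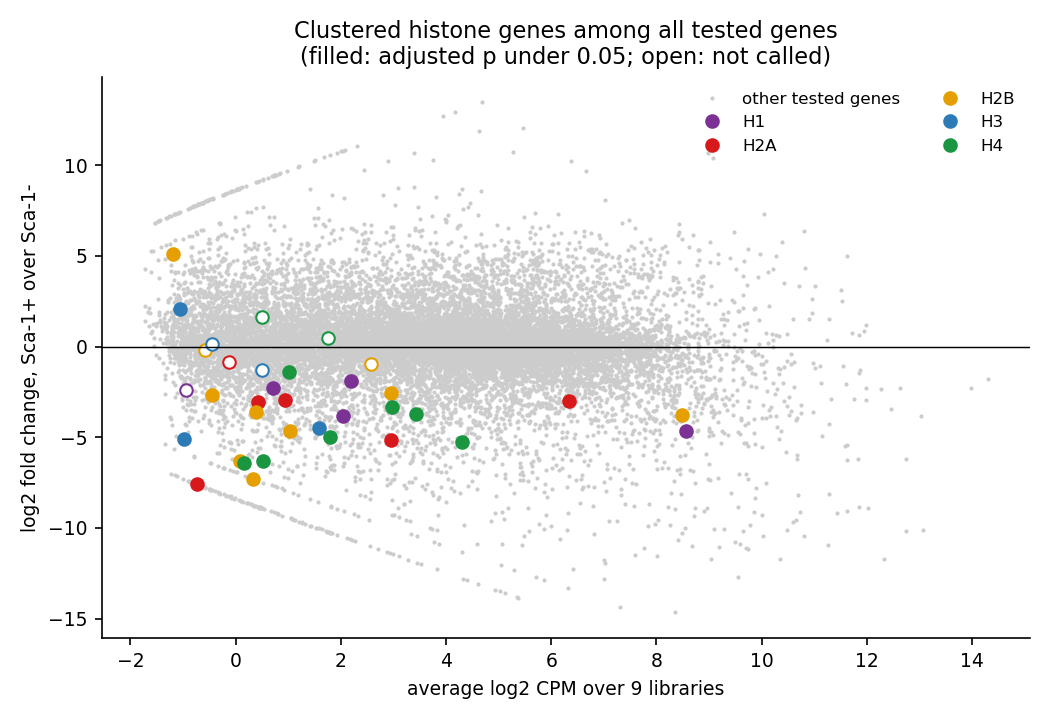
Log2 fold change (Sca-1+ over Sca-1-) against average log2 CPM for all 15937 tested genes (grey) and the 35 tested clustered histone genes (coloured by class; filled, adjusted p under 0.05; open, not called). The grey cloud centres near 0 (median 0.07), and 25 filled histone points lie below 0 and 2, both at low level, above it.

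Among the linker histones, Hist1h1c, which encodes H1.2, was the most abundant. It was measured at 29.8, 23.8, 29.6 and 23.4 CPM in Sca-1+ libraries 7, 13, 15 and 19, and at 1066, 1058, 397, 309 and 477 CPM in Sca-1- libraries 8, 10, 14, 16 and 22. The fractions were far apart, and within Sca-1- libraries 8 and 10 stood above the other three. The log2 fold change was -4.63 ± 0.47 (SE; edgeR adjusted p = 6.03e-05). Hist1h1b, the gene of H1.5, was at 0.750, 0.681, 0.380 and 0.155 CPM in Sca-1+, and at 3.66, 4.05, 9.76, 9.53 and 7.61 CPM in Sca-1-. Here libraries 14 and 16 were the highest and library 8 the lowest of the Sca-1- fraction, and the groups did not overlap (log2 fold change -3.80 ± 0.60 (SE), edgeR adjusted p = 0.000639).

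Hist1h1e, the gene of H1.4, was at 1.64, 2.35, 1.86 and 1.20 CPM in Sca-1+ and at 2.28, 3.84, 13.4, 8.43 and 5.50 CPM in Sca-1-. Library 8 of Sca-1- lay below library 13 of Sca-1+, so the groups overlapped; the log2 fold change was -1.92 ± 0.54 (SE; edgeR adjusted p = 0.0156). The call was lost when libraries were scaled by their totals alone (edgeR adjusted p = 0.068). The annotated exons of Hist1h1e overlap those of Hist1h2be on the same strand, so their counts are uncertain. Hist1h1d, the gene of H1.3, was at 0.341, 0.375, 0.863 and 0.387 CPM in Sca-1+ and at 1.74, 2.16, 1.57, 4.62 and 1.95 CPM in Sca-1-, without overlap (log2 fold change -2.28 ± 0.55 (SE), edgeR adjusted p = 0.00704). Hist1h1a was tested and not called (-2.38, edgeR adjusted p = 0.102), and Hist1h1t, the testis linker histone, held 27 counts.

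In the H2A class, Hist3h2a lies outside the large cluster, on chromosome 11 (58954685 to 58956830, plus strand). It was at 14.8, 17.7, 15.4 and 18.6 CPM in Sca-1+ and at 180, 276, 115, 40.4 and 45.3 CPM in Sca-1-. The Sca-1+ values lay within a narrow range, and in Sca-1- libraries 10 and 8 were the highest and 16 and 22 the lowest. The log2 fold change was -2.98 ± 0.57 (SE; edgeR adjusted p = 0.00199). Its exon overlaps Trim17 on the same strand. Hist1h2ac was at 0.477, 0.102, 0.414 and 0.503 CPM in Sca-1+ and at 17.9, 23.2, 10.6, 8.53 and 7.17 CPM in Sca-1-. It was 36.1-fold higher in Sca-1-, with a log2 fold change of -5.16 ± 0.61 (SE; edgeR adjusted p = 0.000139), and libraries 8 and 10 were again the highest.

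Hist1h2ae was at 0.170, 0.443, 0.587 and 0.348 CPM in Sca-1+ and at 1.98, 2.23, 2.46, 6.14 and 2.12 CPM in Sca-1-, where library 16 stood above the rest. Hist1h2ao was at 0.341, 0.238, 0.242 and 0.155 CPM in Sca-1+ and at 1.20, 1.68, 3.10, 2.56 and 1.87 CPM in Sca-1-. Neither gene had overlapping groups, and both were lower in Sca-1+, with log2 fold changes of -2.93 ± 0.59 (SE; edgeR adjusted p = 0.0026) and -3.07 ± 0.52 (SE; edgeR adjusted p = 0.00098). Hist2h2ac was tested and not called (-0.82, edgeR adjusted p = 0.215). Hist1h2ab was the extreme of the class. It had no count in any Sca-1+ library and 0.529 to 1.27 CPM in Sca-1-, at least 9.08-fold higher when Sca-1+ is set to the level of 3 counts per library. Of the 20 H2A genes, 14 were not tested, and 1 of them, the pseudogene Hist1h2aj (chosen after its values were seen), had nearly all its counts in library 14 (4.03 CPM, beside 0 to 0.0698 CPM in the other Sca-1- libraries and 0 in Sca-1+).

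In the H2B class, Hist1h2bc was at 45.7, 45.1, 46.7 and 41.7 CPM in Sca-1+ and at 963, 870, 590, 331 and 306 CPM in Sca-1-. The Sca-1+ libraries differed little, and the Sca-1- libraries fell into the same order as for Hist1h4h and Hist1h4i, from library 8 down to library 22. The log2 fold change was -3.77 ± 0.41 (SE; edgeR adjusted p = 9.03e-05). Its annotated transcript has 2 exons and does not contain the stem-loop. Hist1h2be was at 2.15, 1.09, 2.21 and 2.71 CPM in Sca-1+ and at 15.7, 18.8, 11.6, 6.67 and 8.51 CPM in Sca-1- (log2 fold change -2.58 ± 0.44 (SE), edgeR adjusted p = 0.000946), without overlap.

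Hist1h2bg was at 0.307, 0, 0.138 and 0.0774 CPM in Sca-1+ and at 3.004, 2.37, 2.21, 6.64 and 3.09 CPM in Sca-1-. Library 16 was the highest, as for its neighbour Hist1h2ae, and the log2 fold change was -4.67 ± 0.89 (SE; edgeR adjusted p = 0.00186). Hist2h2be behaved differently. It was at 3.75, 2.32, 5.53 and 3.99 CPM in Sca-1+ and at 6.85, 4.89, 7.51, 8.93 and 9.37 CPM in Sca-1-, so that libraries 15 and 10 overlapped. Its log2 fold change of -0.95 ± 0.36 (SE) missed the threshold (edgeR adjusted p = 0.0537), and it was called lower without library 15, 8, 10 or 14 and with DESeq2, limma or the replicate block. The other tested H2B genes that were lower, Hist1h2bn, Hist1h2bj, Hist1h2br and Hist3h2ba (named after their values were seen, as are Hist1h1a, Hist1h1t, Hist2h2ac and Hist1h2ab), had log2 fold changes of -7.30, -3.61, -6.30 and -2.67; the call of Hist3h2ba was lost without library 13 or 15 (edgeR adjusted p = 0.0519 and 0.0574).

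The H3 genes were the least counted. Hist1h3d was at 0.205, 0.477, 0.207 and 0 CPM in Sca-1+ and at 5.35, 7.47, 5.90, 3.69 and 3.34 CPM in Sca-1-, with a log2 fold change of -4.49 ± 0.83 (SE; edgeR adjusted p = 0.00162). Hist1h3i was at 0.0341, 0, 0 and 0.0387 CPM in Sca-1+ and at 0.961, 1.19, 0.636, 0.797 and 0.366 CPM in Sca-1- (log2 fold change -5.11 ± 0.85 (SE), edgeR adjusted p = 0.000898). For both the groups were separate. Hist2h3c2 was at 0.648, 1.23, 0.518 and 0.619 CPM in Sca-1+ and at 3.24, 3.56, 1.53, 0.299 and 0.692 CPM in Sca-1-, and Hist1h3e at 0.511, 0.545, 1.11 and 0.542 CPM and at 0.1802, 0.209, 0.721, 1.56 and 0.366 CPM. The groups of these genes overlapped, and neither was called (log2 fold changes -1.29 and 0.13, edgeR adjusted p = 0.18 and 0.897).

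Among the H4 genes, Hist1h4i was at 1.43, 0.613, 1.001 and 0.581 CPM in Sca-1+ and at 56.8, 44.5, 32.9, 21.2 and 18.2 CPM in Sca-1-. It was 38.3-fold higher in Sca-1-, with a log2 fold change of -5.25 ± 0.50 (SE; edgeR adjusted p = 4.52e-05). Hist1h4h was at 1.36, 1.40, 1.52 and 1.16 CPM in Sca-1+ and at 28.2, 27.0, 18.1, 11.3 and 6.43 CPM in Sca-1- (log2 fold change -3.73 ± 0.49 (SE), edgeR adjusted p = 0.000227). For both genes library 8 was highest and library 22 lowest in Sca-1-. Hist1h4c was at 1.60, 0.851, 1.69 and 1.05 CPM in Sca-1+ and at 12.1, 29.7, 12.0, 6.51 and 4.48 CPM in Sca-1- (-3.31 ± 0.60 (SE), edgeR adjusted p = 0.00144). Hist1h4b was at 0.205, 0.170, 0.207 and 0.155 CPM in Sca-1+ and at 8.65, 10.7, 5.94, 2.13 and 2.81 CPM in Sca-1- (-4.99 ± 0.64 (SE), edgeR adjusted p = 0.000215). Library 10 was highest for both. The proteins made by the H4 genes are the same or nearly so, and their transcripts share sequence: 28.9% of the 50-base windows of Hist1h4i and 54.6% of those of Hist1h4b also occurred in other genes.

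**Figure D3:**
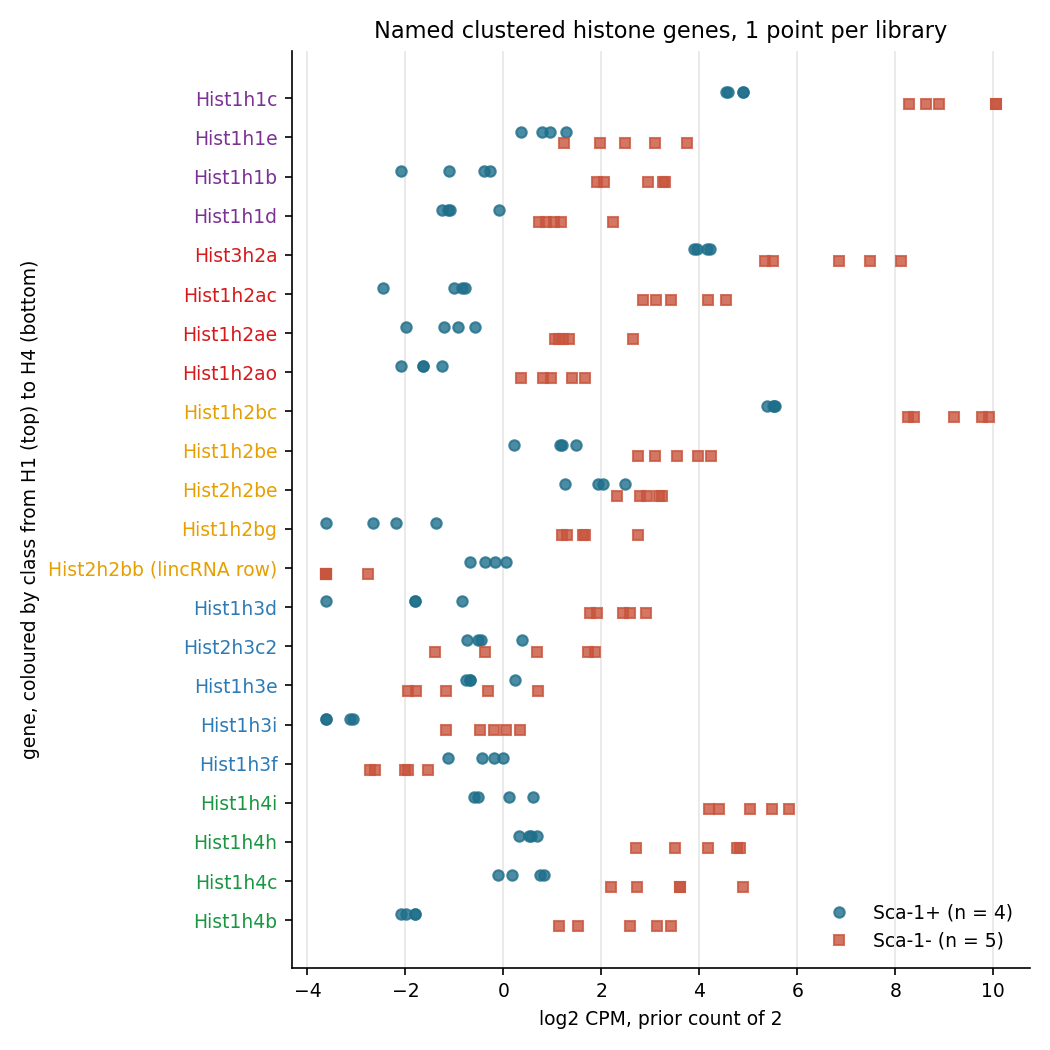
Log2 CPM (prior count of 2) in every library for the leading genes of each class and the 2 called higher; circles, Sca-1+ (n = 4), squares, Sca-1- (n = 5). For 16 of the 20 genes named by level or fold the squares lie wholly to the right of the circles, and for Hist2h2bb (lincRNA row) and Hist1h3f wholly to the left. Over all tested genes such separation was found in 18.8% and 24.8%. The genes shown were chosen by level, fold or call, and some, such as Hist1h2ac and Hist1h3d, could pass the filter only with Sca-1- libraries.

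Only 2 of the 35 tested members were higher in Sca-1+; both fall outside the rule for named genes and are named after their values were seen. Hist1h3f was at 0.375, 0.919, 0.794 and 0.658 CPM in Sca-1+ and at 0.1802, 0.0698, 0.170, 0.266 and 0.0814 CPM in Sca-1- (log2 fold change 2.10 ± 0.56 (SE), edgeR adjusted p = 0.0114). The call was lost without the filter on low counts (edgeR adjusted p = 0.0515) and the direction turned when libraries were scaled to endothelial markers. Of its 50-base windows, 49.3% also occurred in transcripts of other genes. The second was a row of Hist2h2bb annotated as a lincRNA, at 0.545, 0.954, 0.691 and 0.813 CPM in Sca-1+ and at 0, 0, 0, 0.0664 and 0 CPM in Sca-1- (log2 fold change 5.11 ± 0.88 (SE), edgeR adjusted p = 0.00109). It overlaps the protein-coding row of the same name on the same strand, which was not called (-0.16, edgeR adjusted p = 0.91), and Gm20628 on the opposite strand. Hist4h4 and Hist2h4, with means of 3.90 and 2.11 CPM in Sca-1+ beside 2.80 and 0.671 CPM in Sca-1-, were not called (0.48 and 1.62, edgeR adjusted p = 0.449 and 0.199), although limma voom called Hist2h4 higher (2.72, limma adjusted p = 0.0376). These values are low, and Hist1h3f and the lincRNA row each held under 100 counts over the 9 libraries.

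Within the Sca-1- fraction the histone genes did not share one order of libraries. Of the 35 tested members, 18 were highest in library 8 or 10 and 17 in library 14, 16 or 22. The first set included Hist1h1c, Hist1h2bc, Hist3h2a, Hist1h2ac, Hist1h4i and Hist1h4h. The second included Hist1h1b, Hist1h1e, Hist1h1d, Hist1h2ae, Hist1h2ao and Hist1h2bg. Among these, Hist1h1d, Hist1h2ae and Hist1h2bg stood above their Sca-1- mean in library 16 only. The megakaryocyte markers summed to 72514, 84241, 45179, 22266 and 31197 CPM in libraries 8, 10, 14, 16 and 22, highest in 8 and 10. This was not particular to megakaryocyte genes: the endothelial markers (3071, 4423, 1817, 1446 and 1592 CPM), the erythroid markers (1832, 2398, 1017, 846 and 640 CPM) and the leukocyte markers (3184, 2801, 2029, 2636 and 1601 CPM) were also highest in libraries 8 and 10. The S-phase genes summed to 968, 1247, 2119, 2571 and 2630 CPM and the proliferation markers to 214, 358, 536, 593 and 682 CPM in the same libraries, lowest in 8 and 10. These CPM carry the TMM factors, which were 0.671 and 0.581 in libraries 8 and 10 and 0.988, 1.16 and 1.14 in 14, 16 and 22. A lower factor raises every CPM of its library, and the orders of libraries were not read from unscaled counts. No correlation was computed over 5 libraries, the sets were formed after the values were seen, and the part of these cells and of cycling in the histone levels was not tested.

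**Figure D4:**
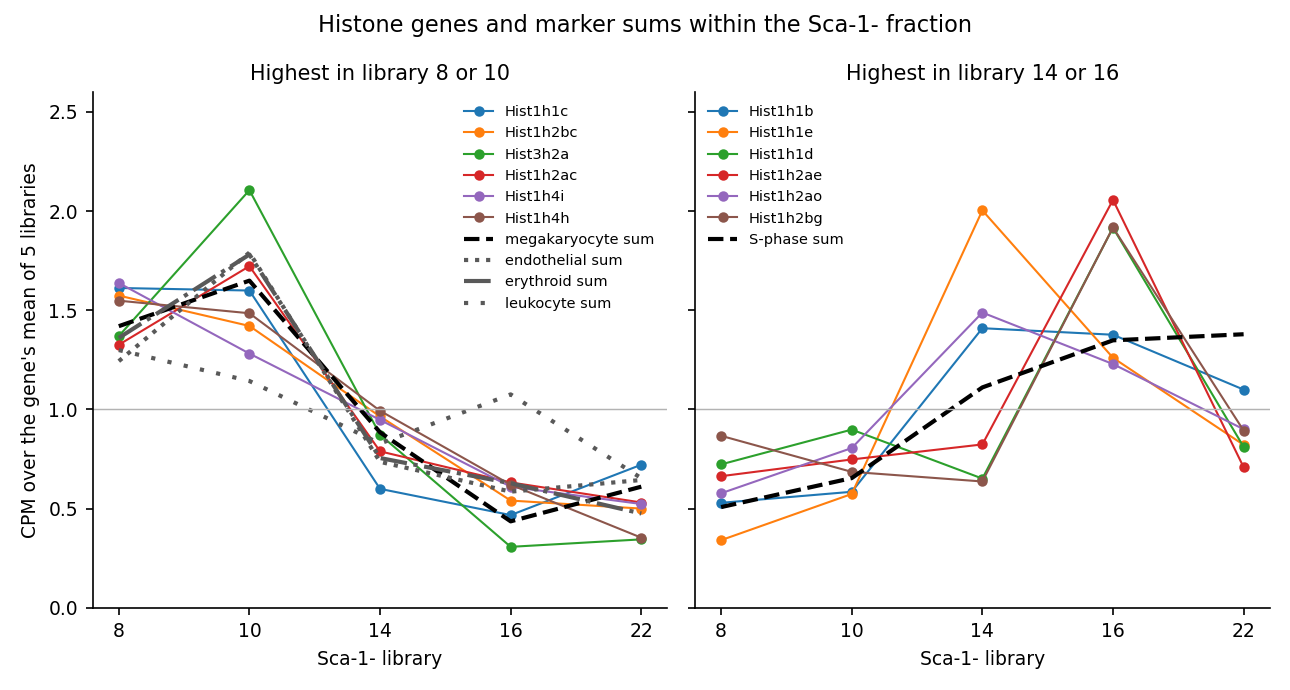
CPM in each Sca-1- library over the gene's mean of the 5 libraries, for 6 histone genes highest in library 8 or 10 with the megakaryocyte, endothelial, erythroid and leukocyte marker sums (left) and 6 highest in library 14 or 16 with the S-phase sum (right); lines only join values of one gene, and the libraries have no order. On the left the genes and all 4 sums lie above 1 in libraries 8 and 10, and the genes lie below 1 in 16 and 22. On the right the genes lie below 1 in libraries 8 and 10. There Hist1h1d, Hist1h2ae and Hist1h2bg lie above 1 only in library 16, whereas the S-phase sum lies above 1 in 14, 16 and 22. The CPM are TMM-scaled.

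Many replication-dependent genes are annotated well beyond the stem-loop. Of the 44 members with a stem-loop, 22 had a transcript that ran 108 to 4884 bases past it, and 15 of these had an AATAAA or ATTAAA, the hexamers that guide polyadenylation, after the stem-loop. The other 22 ended 3 to 74 bases after it, and 1 of them, Hist1h4h, had such a hexamer. The first set held 56.0% of all histone counts and the second 2.58%. Of the 92814 counts of the first set, Hist1h1c held 66299 and Hist3h2a 13866. The remaining counts came from 24 members without a stem-loop in an annotated transcript (41.4%), nearly all from Hist1h2bc. Of the first set, 18 were tested, 13 were lower and 1 was higher in Sca-1+. Of the second, 8 were tested and 7 were lower. Of these 7, all but Hist1h4h averaged 0 to 0.244 CPM in Sca-1+ and could pass the filter only with Sca-1- libraries. The same held for some of the first set, such as Hist1h2ac and Hist1h3d, so that the filter favoured lower calls in both sets. Beside the counts of both sets stand 21.4% lower and 23.3% higher over all tested genes. Per kilobase (kb) of annotated exon, the median level in Sca-1- was 2.09 CPM per kb in the first set and 0.921 CPM per kb in the second, and in Sca-1+ 0.547 and 0.0667 CPM per kb.

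On the same per-length scale Hist1h2bc (530 CPM per kb), Hist1h1c (424 CPM per kb), Hist3h2a (61.2 CPM per kb), Hist1h4i (47.7 CPM per kb) and Hist1h4h (38.7 CPM per kb) led the Sca-1- fraction, and in Sca-1+ Hist1h2bc (38.8 CPM per kb), Hist1h1c (17.1 CPM per kb) and Hist3h2a (7.75 CPM per kb) did. Hist1h1c and Hist3h2a were annotated 840 and 1643 bases past the stem-loop. Hist1h4h ended 46 bases past the stem-loop, and the annotated transcript of Hist1h2bc held no stem-loop. Whether a transcript is annotated as long or short says nothing about which form was read in these libraries, and reads were not placed along the genes here.

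**Figure D5:**
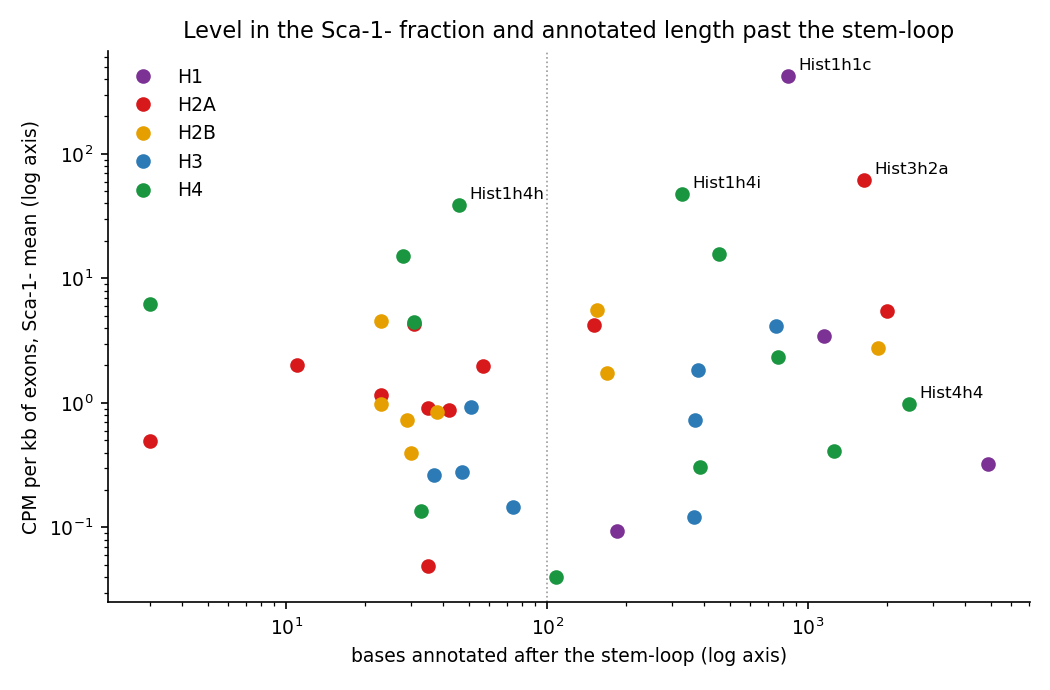
Mean CPM per kb of annotated exons in the Sca-1- fraction against the bases annotated after the stem-loop (both axes log), 1 point per gene with a stem-loop and a count there, coloured by class; the dotted line marks 100 bases. Levels span several orders of magnitude on both sides of the line, Hist1h1c (424 CPM per kb) is the highest point and Hist1h4h (38.7 CPM per kb) the highest left of the line.

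Many H2A and H2B genes stand head to head, a short stretch apart, and are read outward from shared promoters. Such neighbours were found for 12 pairs of members within 1000 bases. Hist1h2ac and Hist1h2bc, 250 bases apart, were both lower in Sca-1+ and held 1357 and 64995 counts. Hist1h2ae and Hist1h2bg, 175 bases apart, were both lower and held 404 and 427 counts. Hist2h2ac and Hist2h2be, 238 bases apart, were both not called and held 190 and 1301 counts. These were the 3 pairs in which both genes were tested. In 4 others 1 gene was tested, and it was lower in each (Hist1h2bn, Hist1h2bj, Hist1h2br and Hist1h2ao). Their Sca-1+ means were 0.00851, 0.169, 0.0183 and 0.244 CPM, so that they could pass the filter's 0.415 CPM only with Sca-1- libraries. The filter thus favoured a lower call in these 4. Counts of the other 5 pairs were too low to test.

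Promoters of 61 members were matched in RefSeq (GRCm38.p6), from 250 bases before to 50 after the start. The motifs searched, on both strands, were the TATA box as TATAAA, the CCAAT box by its name, the octamer of H2A and H2B promoters as ATTTGCAT and a box of H1 promoters as AAACACA; no motif lies within another. TATAAA was in 57.4% of the member promoters and 13.6% of all 32851 promoters, and CCAAT in 85.2% and 37.4%. CCAAT was in all 49 matched promoters of H1, H2A, H2B and H3 genes but in 3 of 12 of H4. ATTTGCAT occurred in 7 of 18 H2A and 7 of 15 H2B promoters and in none of the other classes (1.74% of all promoters), and AAACACA in 5 of 6 H1, 2 of 18 H2A and 1 of 15 H2B promoters and in none of H3 or H4 (7.18% of all). Both rows of Hist2h2bb were matched to the same promoter, which holds CCAAT and ATTTGCAT and is counted for each row. A match is a description of the letters. The promoters of 4 genes that were lower in Sca-1+ are shown to compare the classes, with every match in capitals on the strand of the gene, reverse complements included.
Hist1h1c: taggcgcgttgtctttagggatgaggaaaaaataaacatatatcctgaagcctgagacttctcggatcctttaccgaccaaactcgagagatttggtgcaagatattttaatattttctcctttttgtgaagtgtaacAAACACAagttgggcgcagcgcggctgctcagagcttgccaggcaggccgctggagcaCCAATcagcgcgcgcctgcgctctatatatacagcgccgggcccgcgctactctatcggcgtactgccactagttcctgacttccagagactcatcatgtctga
Hist3h2a: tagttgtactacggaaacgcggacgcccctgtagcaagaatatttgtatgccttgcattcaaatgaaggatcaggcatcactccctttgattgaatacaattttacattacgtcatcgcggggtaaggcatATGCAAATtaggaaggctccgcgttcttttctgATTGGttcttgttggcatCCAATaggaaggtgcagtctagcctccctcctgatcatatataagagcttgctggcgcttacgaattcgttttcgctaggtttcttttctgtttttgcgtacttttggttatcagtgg
Hist1h2ac: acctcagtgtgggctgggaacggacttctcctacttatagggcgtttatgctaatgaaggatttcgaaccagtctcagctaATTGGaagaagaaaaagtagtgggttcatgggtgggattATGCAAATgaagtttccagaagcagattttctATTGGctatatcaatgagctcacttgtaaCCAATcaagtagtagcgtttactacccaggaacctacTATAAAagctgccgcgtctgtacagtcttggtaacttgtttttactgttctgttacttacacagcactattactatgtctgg
Hist1h4i: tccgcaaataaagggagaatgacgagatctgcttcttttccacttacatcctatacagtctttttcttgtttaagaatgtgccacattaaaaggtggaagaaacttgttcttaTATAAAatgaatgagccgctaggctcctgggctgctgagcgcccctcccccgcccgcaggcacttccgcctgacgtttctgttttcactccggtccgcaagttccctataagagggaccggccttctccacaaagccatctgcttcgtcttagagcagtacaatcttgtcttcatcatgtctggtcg
These lie at chr13:23738557-23738856 (plus strand, Hist1h1c), chr11:58954435-58954734 (plus, Hist3h2a), chr13:23683910-23684209 (minus, Hist1h2ac) and chr13:22041313-22041612 (minus, Hist1h4i).

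Genes around the histones were read from lists of the same fit. The polyadenylated variant histones are made outside S phase as well and are normally tailed. Of 11 tested, 1 was higher and 6 were lower in Sca-1+, beside 23.3% and 21.4% of all tested genes. Their median log2 fold change was -1.03. Cenpa, the centromeric H3, was lower (24.3 ± 1.45 (SD, n = 4) against 123 ± 60.9 CPM (SD, n = 5), log2 fold change -2.34, edgeR adjusted p = 0.000951), as were H2afx, which marks DNA damage (-2.02, edgeR adjusted p = 8.92e-05), H1fx (-1.74, edgeR adjusted p = 0.034) and the H3.3 genes H3f3a and H3f3b (-1.15 and -1.26, edgeR adjusted p = 0.00648 and 0.0431). H2afv, an H2A.Z gene, was higher (0.78, edgeR adjusted p = 0.00812). H1f0, the linker histone of non-dividing cells, had a log2 fold change of 0.78 and H2afz one of -0.59, and neither was called (edgeR adjusted p = 0.0576 and 0.0609). Several of these calls were near the threshold: H1fx was lost without library 13, 15, 19, 16 or 22 (edgeR adjusted p = 0.0534 to 0.0938), by library totals alone (0.12) and without the filter (0.0509), and H3f3b without any single library but 16 or 22, under the replicate block of libraries 15 and 16 (edgeR adjusted p = 0.0699) and without the filter (0.0533), with a log2 fold change of -0.51 without both libraries 8 and 10 (edgeR adjusted p = 0.0855). H1f0 was called higher without library 19 or 22, and H2afz lower without library 8 or 10.

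Of 19 genes of histone mRNA processing, 1 was higher and 3 were lower, beside 23.3% and 21.4% of all tested genes. Their median log2 fold change was -0.25. Slbp, which binds the stem-loop, was at 224, 258, 275 and 298 CPM in Sca-1+ and at 67.9, 90.1, 166, 188 and 175 CPM in Sca-1-. Its groups did not overlap, and it was higher in Sca-1+ (log2 fold change 0.94 ± 0.31 (SE), edgeR adjusted p = 0.0312), against the direction of the histone genes; the call was lost without library 13, 15, 19 or 10 and when libraries were scaled by totals or endothelial markers. Eri1, an exonuclease that trims histone mRNA ends, and Cpsf2 and Sympk, parts of the cleavage complex, were lower (-2.18, -1.57 and -1.38, edgeR adjusted p = 0.000508, 0.000374 and 0.00337).

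Of 19 histone chaperones, 2 were higher and 6 lower, beside 23.3% and 21.4% of all tested genes, with a median of -0.05. Asf1b and Chaf1a, which deliver new H3 and H4 behind the replication fork, were lower (log2 fold changes -3.53 and -3.10, edgeR adjusted p = 0.000143 and 0.000313), as was Ubn2, a partner of the HIRA complex (-2.16, edgeR adjusted p = 0.011). Atrx and Nasp were higher (1.49 and 1.16, edgeR adjusted p = 0.00187 and 0.0327), and Nasp was not called without library 15, 19, 8 or 22 (edgeR adjusted p = 0.0547 to 0.0894) or by library totals alone (0.053). Slbp, H2afv, Atrx and Nasp turned to lower when libraries were scaled to endothelial markers. Of 24 S-phase genes, 21 were lower and none higher, beside 21.4% and 23.3% of all tested genes, with a median of -1.81. Uhrf1, Cdc6 and Mcm5 had the largest differences (-2.76, -2.73 and -2.55, edgeR adjusted p = 0.000319, 0.000363 and 0.000383). The summed S-phase genes were 617 to 661 CPM in Sca-1+ and 968 to 2630 CPM in Sca-1-.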

How the data were processed

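The labels name SMART-Seq v4 libraries of 2 ng total RNA and poly(A) RNA. Raw read counts of every gene in the 9 libraries were deposited by the authors as a single table; the submitters' processing notes name STAR, featureCounts and mm10, and versions, strand and the handling of reads that map to several genes are not given in the sources used here. Such handling can lower or misassign counts of near-identical histone genes: a median of 51.0% of a member's 50-base windows also occurred in other genes' transcripts, with over 50% in 34 members. Exons of 8 members overlapped another gene on the same strand and of 24 on the opposite strand. Groups came from the labels.

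Counts were fitted with edgeR 4.0.16 (R 4.3.3): filterByExpr defaults (minimum count 10, total 15), TMM, quasi-likelihood test, two-sided, over the whole table, threshold 0.05. TMM factors were 1.12 to 1.22 in Sca-1+ and 0.581 to 1.16 in Sca-1-. Depth was 21581653 to 25959818 counts; reads carry no molecular identifiers, so limits at 0 cover counting error only. Replicates of a fraction differed by 36.8 to 538 times the sampling noise (chi-square per degree of freedom), and none was merged. Per-kb levels divide mean CPM by annotated exon length (GENCODE M21).

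Alternatives were DESeq2 1.42.0, limma 3.58.1 voom, other scalings, no filter, robust fitting, a replicate block and leaving out libraries. Named genes were the 4 most abundant members of each class, the 3 called members with the most negative log2 fold changes at an average log2 CPM of at least 1 (no higher member reached it), up to 3 called genes per direction of each other list, and Slbp, H1f0, H3f3a, H3f3b and H2afz whatever their call. The members and lists were chosen with earlier results of these data known.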

Additional observations from a re-analysis of the deposited data

Results flagged for a closer look

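In 6 of 70 groups of libraries examined, 1 library stood far from the others of its fraction by Dixon's test. The test flags about 1 in 20 by chance when groups are chosen beforehand. Some groups here are of genes named after their values were seen, among them Hist1h2aj and the lincRNA row of Hist2h2bb. The 6 of 70 can therefore not be compared with that rate. In Sca-1+, library 15 was high for Hist1h1d (log2 CPM -0.083, the others -1.25 to -1.10) and for Hist1h3e (0.25, the others -0.76 to -0.68), and library 13 was low for Hist1h2ac (-2.45, the others -1.01 to -0.78). In Sca-1-, library 16 was high for Hist1h2ae (2.64, the others 1.04 to 1.35) and, at 2 counts, for the lincRNA row of Hist2h2bb (-2.76, the others at -3.63), and library 14 was high for the pseudogene Hist1h2aj (2.04, the others -3.63 to -2.73). Hist1h1d, Hist1h2ac and Hist1h2ae were called lower in Sca-1+ whichever single library was left out.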

How the results depend on the processing

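The 25 lower members were 23 to 26 under DESeq2 size factors, upper-quartile scaling, library totals alone, robust fitting and limma voom, and 24 to 29 with any 1 library left out; the 2 higher members were 2 in each of these except limma voom, with 3. Without the filter, 35 were lower and 1 higher, and in DESeq2's own test 40 were lower. Scaled to the endothelial marker sum, 12730 genes were called in place of 7137, the median of all genes moved to -2.89, and 0 members were higher and 32 lower; class totals (log2 ratio, Sca-1+ over Sca-1-) were then -7.20 for H1, -5.65 for H2A, -6.32 for H2B, -4.61 for H3, -5.59 for H4 and -6.46 for all, beside -4.51, -3.07, -3.61, -1.80, -2.88 and -3.77. By library totals alone the median of all genes moved to 0.43 and H3 was at -1.32. Without both libraries 8 and 10, chosen after seeing the data, 28 members were lower and 2 higher, and H1 was at -3.82, H2A at -2.26 and all at -3.13. Causes were not tested.

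Only libraries 15 and 16 share a number in their labels. With these taken as a replicate block, 6847 genes were called, 25 members lower (24 of them the same) and 2 higher, the call of H3f3b was lost (-1.16, edgeR adjusted p = 0.0699), and whether the number marks a pairing is not stated. Among single genes, the direction turned on scaling to endothelial markers for Hist1h3e (-3.08), Hist1h3f (-0.85), Hist4h4 (-2.24), Hist2h4 (-1.61), H2afv (-2.23), H1f0 (-2.26), Slbp (-2.16), Nasp (-1.97) and Atrx (-1.60). Hist1h3e was at -0.39 without libraries 8 and 10, and at -0.20 to 0.83 with 1 library left out. The protein-coding row of Hist2h2bb turned to 0.12 under the replicate block and 0.62 in limma voom, and ran from -0.54 to 0.75 with 1 library left out. The 35 members that were not tested held at most 120 counts each.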
